A study of Mus with 15 samples.

Results

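Lipid droplets are the organelles in which cells keep triglyceride, and the perilipins are the proteins that coat them. Plin1, the main coat protein of white adipocytes, guards the droplet against lipases until it is phosphorylated, while Plin2 and Plin3 coat the small droplets of most other cell types, macrophages among them. Cidec lets adipocyte droplets merge into a single large one, Bscl2 (seipin) and Fitm2 act in the endoplasmic reticulum where droplets form, and Hilpda is a small droplet protein induced by low oxygen that inhibits the lipase Pnpla2.

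The 9 genes Plin1, Plin2, Plin3, Plin4, Plin5, Cidec, Fitm2, Bscl2 and Hilpda were taken by symbol from a matrix of 55471 genes, and all 9 passed the filter on low counts that left 16051 genes for testing. The libraries came from wild type C57BL/6 mice aged 7 weeks. They formed 3 groups of 5 samples, which were ungrafted adipose tissue as the control, grafted fat taken at day 3, and grafted fat taken at day 7. The fat depot, the site and host of the graft and any pooling of animals are not given in the sources used here. Nothing in the labels says that the 5 samples of a group came from separate animals, so p-values measure the spread between these samples, which may be partly technical.

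Total estimated counts were 17109216 to 31845173 in the controls, 23736037 to 29366860 at day 3 and 20192200 to 31997959 at day 7. Levels are given in CPM, the count of a gene scaled to a common library size, except where genes are compared with each other. For that the deposited TPM is used, which divides by transcript length. Changes are log2 fold changes ± SE from limma-voom with n = 5 per group, and a gene was called at a Benjamini-Hochberg adjusted p under 0.05 over all tested genes. Adipoq, the adiponectin gene that defines adipocytes, was present in all controls at 1124 to 3909 CPM, at 150 to 433 CPM at day 3 and at 57 to 130 CPM at day 7. Control 2 carried the most skeletal muscle RNA, and control 4 had the highest level of adipocyte genes. Leaving out either of them ended no call of the 9 genes against control.

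On the build mm10, with positions as the matrix gives them, Plin1 (ENSMUSG00000030546) lies on chromosome 7 from 79720218 to 79732903. Plin2 (ENSMUSG00000028494) lies on chromosome 4 from 86648386 to 86670060. The other perilipins share a stretch of chromosome 17 and its minus strand. Plin4 (ENSMUSG00000002831) runs from 56100591 to 56109803, and Plin5 (ENSMUSG00000011305) follows 1797 bases further on, from 56111601 to 56117596, with 0 protein-coding genes in between. Plin3 (ENSMUSG00000024197), from 56277476 to 56292873, is separated from Plin5 by 159879 bases and 7 protein-coding genes. These 5 were the only genes of the matrix annotated with the perilipin family domain, so the remaining members belong to other protein families. Cidec (ENSMUSG00000030278, 113424634 to 113435760) and Hilpda (ENSMUSG00000043421, 29272488 to 29275446) lie on chromosome 6, Fitm2 (ENSMUSG00000048486, 163466379 to 163472629) on chromosome 2 and Bscl2 (ENSMUSG00000071657, 8837467 to 8848683) on chromosome 19. The labels do not say whether counting used the strand. Plin4 overlaps Hdgfl2 by 17 bases and Fitm2 a long non-coding RNA by 673 bases, both on the opposite strand. Bscl2 overlaps Gng3 on the opposite strand and the predicted gene Gm50139 on its own strand, which averaged 3.67 and 0.4 counts a library beside 2237 for Bscl2.

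The comparison of day 3 grafts with controls asks how the droplet genes stood early after grafting. Plin1, Plin4, Plin5, Cidec, Fitm2 and Bscl2 fell, and Plin2, Plin3 and Hilpda rose. All 9 members were thus called, 3 higher and 6 lower, where 60.4% of all tested genes were called (30.1% higher and 30.3% lower). The groups did not overlap in CPM for any of the 9, against 40.5% of tested genes (20.6% higher and 19.9% lower). On TPM day 3 graft 2 was above control 5 for Plin1 and Plin4, so these groups overlapped in that unit. The same 3 genes were higher and the same 6 lower at day 7 against control, where 60.7% of tested genes were called (32.2% higher and 28.4% lower) and 42.5% had groups that did not overlap (22.7% higher and 19.8% lower). Both comparisons use the same controls.

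**Figure D1:**
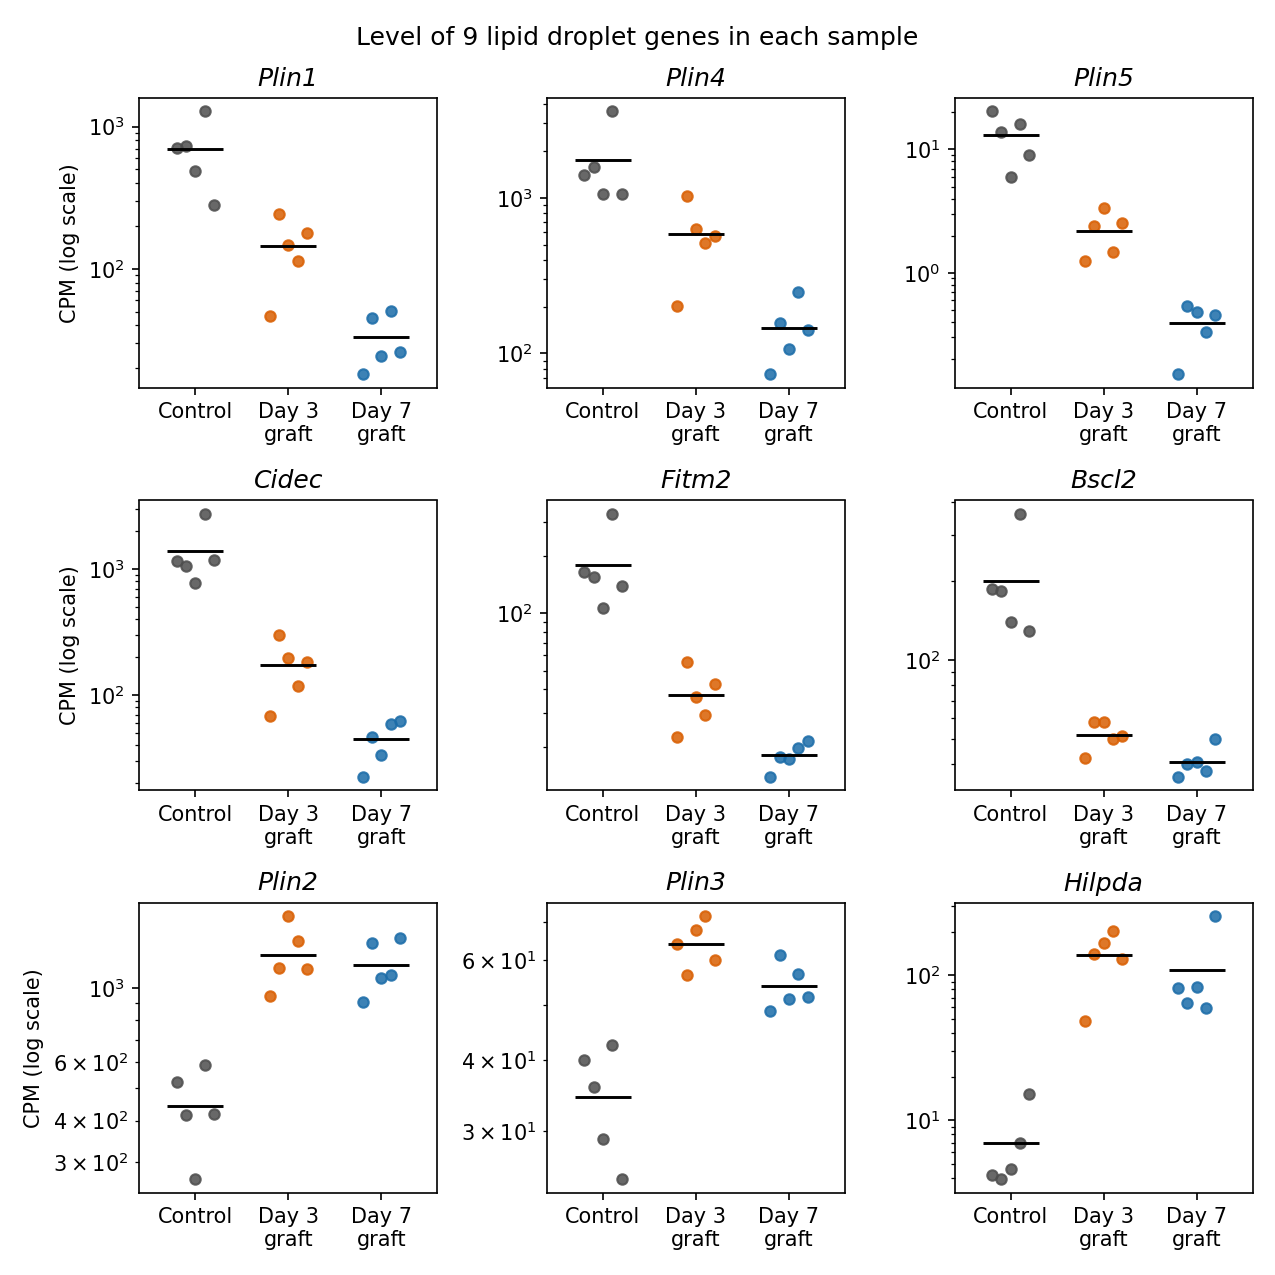
CPM of each of the 9 genes (log axis, a separate scale for each gene) in the 5 control, 5 day 3 and 5 day 7 samples; points are samples and bars are arithmetic means. The 6 genes in the upper rows step down from control to grafts, and Plin2, Plin3 and Hilpda in the bottom row are higher in all 10 grafts than in any control.

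Among the coat proteins of adipocytes, Plin1 stood at 708, 726, 490, 1283 and 280 CPM in controls 1 to 5. It stood at 46.3, 242, 146, 114 and 178 CPM in day 3 grafts 1 to 5. At day 7 the levels were 18.1, 45.4, 24.2, 50.8 and 26.1 CPM. In CPM every graft was below the lowest control, and day 3 graft 1 was the only day 3 graft that reached down into the day 7 range. On TPM day 3 graft 2 (235 TPM) was above control 5 (223 TPM). Plin1 fell by 2.28 ± 0.47 on the log2 scale at day 3 (4.87-fold, adjusted p = 0.000765, limma). At day 7 it was lower by a log2 change of -4.35 ± 0.47 (20.4-fold, adjusted p = 2.53e-06, limma). In a bulk sample fewer adipocytes and less Plin1 RNA per adipocyte cannot be told apart, and the same holds for every gene below.

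Plin4, which coats nascent droplets in adipocytes, had the most counts of the perilipins in the controls. Its levels were 1402, 1583, 1064, 3599 and 1052 CPM in the controls. The day 3 grafts held 202, 1028, 626, 515 and 565 CPM. Day 7 grafts held 73.3, 156, 107, 248 and 142 CPM. In CPM day 3 graft 2 came within a few percent of the lowest control, the narrowest gap of any member. On TPM it was above control 5 (244 beside 217 TPM). Plin4 had the smallest change of the 6 genes that fell at day 3 (-1.58 ± 0.46, adjusted p = 0.00845, limma). By day 7 it had fallen by 3.52 ± 0.43 (adjusted p = 8.94e-06, limma).

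Plin5, a perilipin of tissues that burn fat, such as heart, muscle and brown fat, was scarce in this tissue. It ranged from 5.98 to 20.4 CPM in the controls, from 1.24 to 3.38 CPM at day 3 and from 0.15 to 0.534 CPM at day 7. The day 7 values rest on 4 to 16 counts a library. None of the 3 groups overlapped. The changes were -2.52 ± 0.38 at day 3 (adjusted p = 6.17e-05, limma) and -4.96 ± 0.55 at day 7 (adjusted p = 3.62e-06, limma), beside -4.89 for Cidec. On log2(TPM + 1), which understates changes of scarce genes, Plin5 at day 7 was at -2.71, less than the -4.35 of Cidec, and at -1.007 between the graft times. Brown fat markers moved with it. Of 8 such genes 7 fell at day 3 and 7 at day 7 (medians -5.52 and -5.93), and their summed level was 187 to 804 CPM in controls, 13.2 to 19.3 CPM at day 3 and 6.10 to 10.8 CPM at day 7.

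Skeletal muscle, which also holds Plin5 and Plin4, was present in uneven amounts. The summed CPM of 11 muscle markers was 3876 in control 2 and 56.7 to 378 in the other controls. It was 284 in day 3 graft 1, 5.55 to 11.8 in the other day 3 grafts and 3.01 to 280 at day 7. Of the 11 markers 3 were called lower at each graft time and 8 were not called, and Myh2, a myosin of fast muscle, was at 0 counts in all day 3 grafts. Plin5 was highest in control 1, which had the lowest muscle level of the controls and their highest summed brown fat markers (804.5 CPM). Control 3, lowest in Plin5 of the controls (5.98 CPM), had the lowest brown fat sum (187 CPM). The part of muscle or brown fat in the Plin5 level was not tested. Without control 2 and day 3 graft 1 together the day 3 change was -2.29 for Plin5 (adjusted p = 0.000698) and -1.22 for Plin4 (adjusted p = 0.0393).

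Cidec had the highest level per length of the 9 genes in controls, and it fell the furthest at day 3. The controls held 1154, 1052, 776, 2754 and 1175 CPM. Day 3 grafts held 67.9, 303, 199, 119 and 184 CPM and day 7 grafts 22.5, 46.9, 33.5, 58.7 and 62.2 CPM. The 3 groups did not overlap. The change was -3.01 ± 0.44 at day 3 (8.03-fold, adjusted p = 4.47e-05, limma) and -4.89 ± 0.43 at day 7 (29.7-fold, adjusted p = 4.69e-07, limma).

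The genes of droplet formation were both called lower at each graft time against control. Fitm2, which keeps droplets budding toward the cytosol, was at 106 to 331 CPM in controls, 22.4 to 55.4 CPM at day 3 and 13.9 to 21.4 CPM at day 7. Its changes against control were -2.21 ± 0.27 and -3.22 ± 0.29 (adjusted p = 9.85e-06 and 5.65e-07, limma). Bscl2, whose loss causes congenital lipodystrophy in humans, was at 129 to 362 CPM in controls, 42.3 to 58 CPM at day 3 and 35.8 to 49.7 CPM at day 7. Its changes were -1.85 ± 0.21 and -2.20 ± 0.21 (adjusted p = 5.44e-06 and 1.15e-06, limma). The spread of Bscl2 over the 5 samples was small in the grafts, with a coefficient of variation of 12.5% at day 3 and 13.2% at day 7 beside 47% in the controls.

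Plin2, the perilipin of most cells outside fat tissue, moved the other way. Controls 1 to 5 held 524, 416, 267, 587 and 420 CPM. Day 3 grafts held 944, 1144, 1638, 1379 and 1140 CPM, and day 7 grafts 904, 1363, 1068, 1090 and 1410 CPM. All 10 grafts were above the highest control, and the graft groups overlapped each other. Plin2 rose by 1.52 ± 0.21 at day 3 (2.87-fold, adjusted p = 2.67e-05, limma) and by 1.43 ± 0.21 at day 7 (2.69-fold, adjusted p = 4.37e-05, limma). Between day 3 and day 7 the change was -0.09 ± 0.23 (adjusted p = 0.871, limma).

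Plin3, a perilipin that moves from the cytosol onto new droplets, rose less and was steady among samples. It was at 40.1, 36, 29.1, 42.5 and 24.7 CPM in the controls. Day 3 grafts held 64, 56.5, 67.9, 71.7 and 60 CPM and day 7 grafts 48.8, 61.3, 51.3, 56.8 and 51.7 CPM. No graft was as low as the highest control. The changes were 0.92 ± 0.14 at day 3 (1.89-fold, adjusted p = 5.31e-05, limma) and 0.67 ± 0.14 at day 7 (1.59-fold, adjusted p = 0.000679, limma). On the deposited TPM, where the median of all genes itself shifted by 0.22 at day 3 and 0.33 at day 7, the day 3 changes were 1.16 for Plin3 and 1.84 for Plin2, and the day 7 change of Plin3 was 1.013. With that unit 68.0% of calls at day 3 and 74.1% at day 7 were higher, beside 49.9% and 53.1% with CPM.

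Hilpda had the largest rise of the 9 genes. It was at 4.2, 3.89, 4.62, 6.95 and 15.3 CPM in controls 1 to 5. Day 3 grafts held 48.7, 140, 168, 204 and 130 CPM, and day 7 grafts 82.3, 64.7, 82.4, 59.3 and 256 CPM. Control 5 was well above the other controls, and day 7 graft 5 was above every other library of the series. The change was 4.34 ± 0.58 at day 3 (20.2-fold, adjusted p = 1.94e-05, limma) and 3.90 ± 0.58 at day 7 (15-fold, adjusted p = 4.40e-05, limma). Without day 7 graft 5 the day 7 change was 3.53, and without control 5 it was 4.24.

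**Figure D2:**
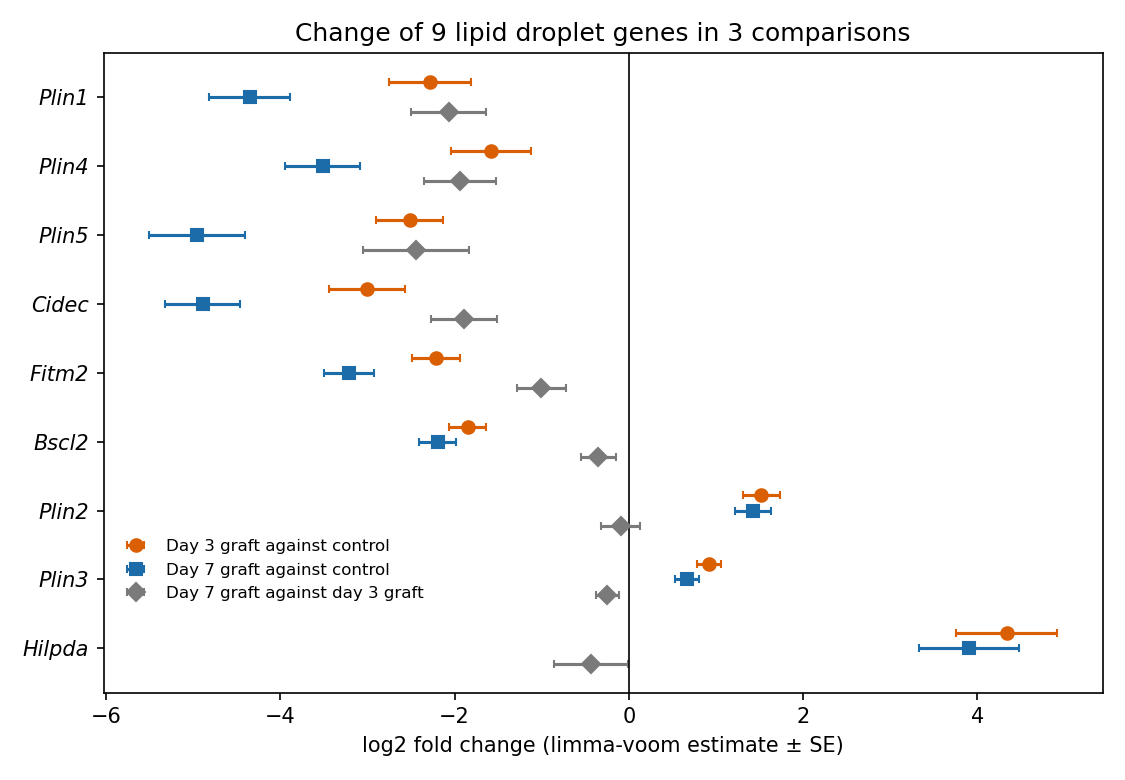
Log2 fold change (horizontal axis, limma-voom estimate with SE bars) of each gene for day 3 against control (circles), day 7 against control (squares) and day 7 against day 3 (diamonds). Plin1, Plin4, Plin5 and Cidec lie near -2 in the comparison of the graft times, while Plin2 lies at -0.09.

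The comparison of day 7 with day 3 grafts asks which droplet genes went on changing between the graft times. Of the 9 members 4 were called and all 4 were lower, where 4.88% of tested genes were called (3.18% higher and 1.71% lower). They were Plin1 (-2.07 ± 0.43, adjusted p = 0.015), Plin4 (-1.94 ± 0.41, adjusted p = 0.0162), Plin5 (-2.44 ± 0.61, adjusted p = 0.0338) and Cidec (-1.89 ± 0.38, adjusted p = 0.0127), each by limma. Samples of the graft groups did not overlap for Plin5, Cidec and Fitm2 (3 of 9 members, all lower, against 7.88% of tested genes, 4.56% higher and 3.32% lower). For Plin1 and Plin4 day 3 graft 1 lay within the day 7 range. Fitm2 was at -1.003 ± 0.28 (adjusted p = 0.0553) and Bscl2 at -0.35 ± 0.21 (adjusted p = 0.376), with Plin3 at -0.25 ± 0.13 (adjusted p = 0.328) and Hilpda at -0.44 ± 0.42 (adjusted p = 0.624). Hilpda was at -0.81 without day 7 graft 5 (adjusted p = 0.175), at -0.78 without day 3 graft 1 and at -0.27 without day 3 graft 4 or day 7 graft 4, and was not called in any of these. The call of Plin5 ended without day 3 graft 2, 3 or 5 (adjusted p = 0.0566, 0.0742 and 0.0661) or day 7 graft 1, 2, 3 or 4 (adjusted p = 0.088, 0.069, 0.0729 and 0.0761).

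Set per transcript length, the order of the genes turned over between control fat and grafts. In controls mean TPM ran from Cidec (1107 ± 307, SD) through Plin1 (478 ± 160), Plin2 (323 ± 51.5), Plin4 (305 ± 104) and Bscl2 (174 ± 39.5) to Fitm2 (50.5 ± 11.8), Plin3 (11.2 ± 1.79), Hilpda (10.8 ± 8.16) and Plin5 (8.13 ± 3.25). Cidec stood clear of the rest, and the samples of Plin1, Plin2 and Plin4 overlapped, as did those of the last 3. At day 3 Plin2 led (1159 ± 213), followed by Hilpda (252 ± 98.8), Cidec (194 ± 105), Plin4 (138 ± 70.1), Plin1 (132 ± 73) and Bscl2 (57.2 ± 6.07), with Plin3 (26 ± 1.99), Fitm2 (13.8 ± 4.81) and Plin5 (1.73 ± 0.664) last. Plin2 again stood clear, while Hilpda, Cidec, Plin4 and Plin1 overlapped. At day 7 Plin2 (1161 ± 176) and Hilpda (209 ± 134) were followed at a distance by Cidec (55.6 ± 21.5), Bscl2 (47.7 ± 3.68), Plin4 (36.8 ± 17.9) and Plin1 (33.3 ± 15.9), whose samples overlapped. The lowest Hilpda value at day 7 (128 TPM) was above the highest of Cidec (79.8 TPM).

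Within the 5 perilipins the ranges of the summed TPM overlapped, at 795 to 1468 in controls, 1048 to 1800 at day 3 and 968 to 1493 at day 7, while the make-up of the sum moved. In controls Plin1 gave 41.6 ± 7.61% of the sum (mean ± SD), Plin2 29.8 ± 8.12%, Plin4 26.8 ± 3.96%, Plin3 1.03 ± 0.21% and Plin5 0.727 ± 0.244%. At day 3 Plin2 gave 80 ± 8.04%, Plin4 9.19 ± 4.05%, Plin1 8.81 ± 4.40% and Plin3 1.84 ± 0.447%. By day 7 the share of Plin2 was 92.6 ± 2.32%, with 88.7 to 94.4% over the samples, and Plin1 was down to 2.6 ± 1.03%. These shares describe the samples and carry no test.

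**Figure D3:**
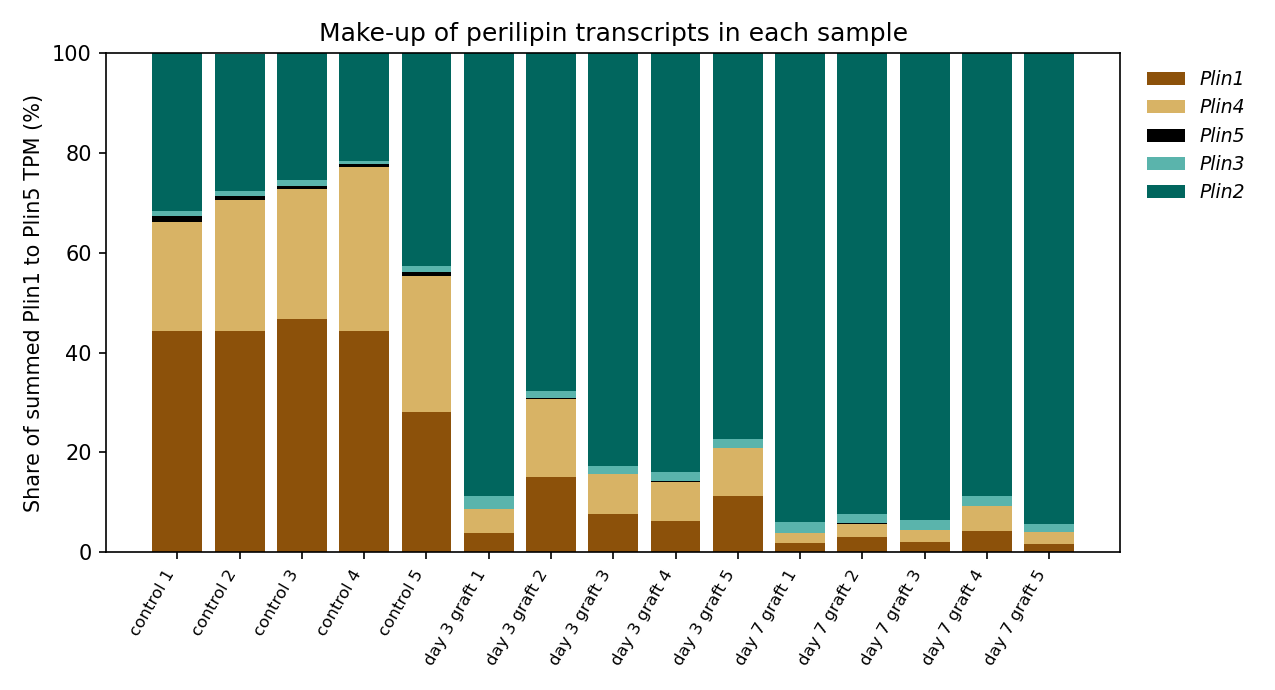
Share of each perilipin in the summed TPM of Plin1 to Plin5 (vertical axis, percent) in each of the 15 samples. Plin2 takes 21.6 to 42.8% in controls, 67.6 to 88.7% at day 3 and 88.7 to 94.4% at day 7.

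Ratios within a sample need no scaling between samples, and they set the ubiquitous perilipins against the adipocyte perilipin directly. The log2 ratio of Plin2 to Plin1 TPM was -0.49, -0.68, -0.88, -1.04 and 0.61 in controls 1 to 5. It was 4.51, 2.16, 3.44, 3.74 and 2.79 in the day 3 grafts and 5.63, 4.91, 5.49, 4.41 and 5.75 in the day 7 grafts. Control 5 was the only control in which Plin2 exceeded Plin1. The means differed by 3.83 between day 3 and control and by 5.73 between day 7 and control (each p = 0.00794, the smallest that 5 against 5 samples can give, adjusted p = 0.0119, exact two-sided permutation test over 6 comparisons). In CPM every graft already had less Plin1 and more Plin2 than any control. The separation from control thus follows from the single genes and is no further evidence. Day 7 exceeded day 3 by 1.91 with overlapping samples (p = 0.0159, adjusted p = 0.019, exact permutation test). Between the graft times Plin2 changed by 0.008 and Plin1 by -1.864 on log2(TPM + 1). This difference thus mostly restates the fall of Plin1 and is no further evidence either.

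The ratio of Plin3 to Plin1 was low in controls, with a mean log2 value of -5.35 ± 0.49 (SD, n = 5). It rose to -2.13 ± 1.04 at day 3 and -0.38 ± 0.52 at day 7. Plin3 thus passed from 0.0152 to 0.0396 of the Plin1 level in the controls to 0.479 to 1.16 of it at day 7. The differences from control were 3.21 and 4.96 (each p = 0.00794, adjusted p = 0.0119, exact permutation test), and day 7 exceeded day 3 by 1.75 (p = 0.0238, adjusted p = 0.0238, exact permutation test). As for Plin2, the separation from control follows from the levels of the single genes. The difference between the graft times mostly restates the fall of Plin1, as Plin3 changed by -0.144 on log2(TPM + 1).

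**Figure D4:**
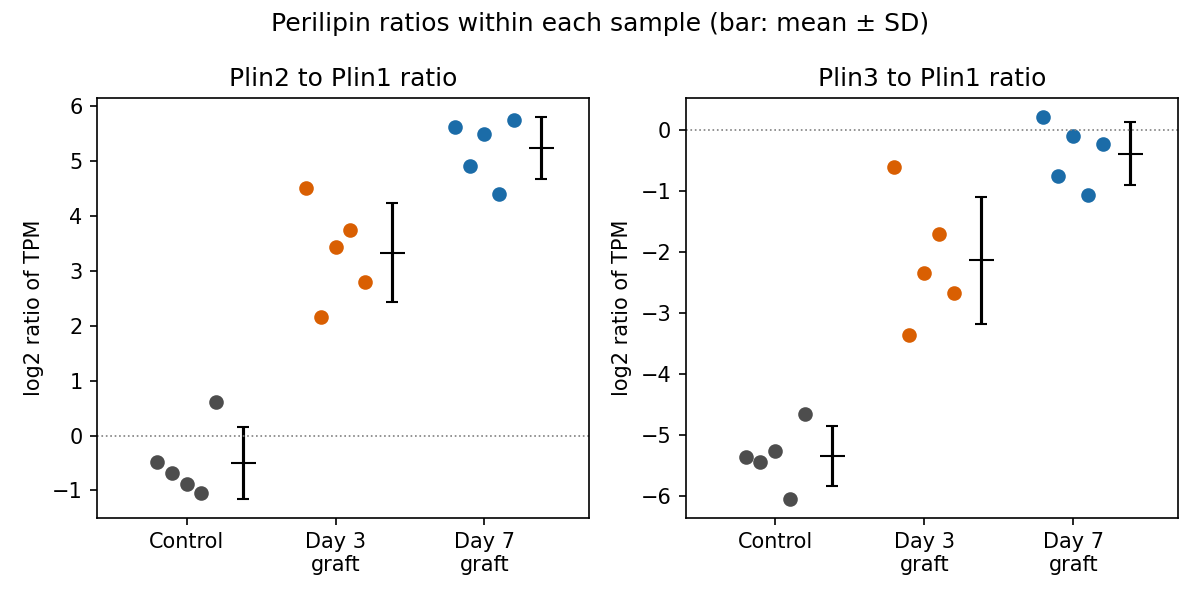
Log2 ratio of Plin2 to Plin1 TPM (left) and of Plin3 to Plin1 TPM (right) in each sample by group, with the mean ± SD beside the points and a dotted line at equal levels. All grafts lie above all controls in both panels, and day 3 graft 1 lies within the day 7 range.

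Markers of white adipocytes other than the members gave a yardstick for the falls. Of 13 such genes all 13 fell at day 3 and at day 7, with median log2 changes of -2.49 and -4.24, beside medians of -0.015 and 0.03 over all tested genes. Their summed level was 25710 to 76320 CPM in controls, 3731 to 9121 CPM at day 3 and 2138 to 4276 CPM at day 7. At day 7 against day 3, 4 of the 13 were called, all lower (median -1.29), among them Cfd, the secreted protease adipsin (-3.19 ± 0.31, adjusted p = 0.000166, limma), and Retn, resistin (-2.16 ± 0.34, adjusted p = 0.00373, limma). A score was taken as the mean log2(CPM + 1) of the 13 genes in a sample, and each member was set against it. Plin1 lay at -0.92 to -0.12 from the score in controls, -0.59 to 0.39 at day 3 and -0.77 to -0.23 at day 7. Its medians were -0.311, 0.165 and -0.682 in that order. Plin1 and Fitm2 ranked the 5 samples in the order of the score at day 3 but not in the controls or at day 7. Plin3 did so in the controls and at day 7 but not at day 3, and Bscl2 in the controls alone.

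Other members also shifted against that score. Cidec lay 0.29 to 1.15 above it in controls, -0.05 to 0.70 from it at day 3 and -0.46 to 0.47 from it at day 7. The medians of Cidec were 0.545, 0.452 and -0.23 in that order. Plin4 lay 0.63 to 1.18 above it in controls, 1.51 to 2.55 at day 3 and 1.20 to 2.04 at day 7. Both graft groups were thus above all controls on this measure, at day 7 only narrowly (day 7 graft 1 at 1.196, control 4 at 1.176). Bscl2 went from -2.27 to -1.92 in controls to -0.66 to 0.18 at day 7, and Fitm2 from -2.46 to -1.93 to a range of -1.77 to -1.03. Plin2 went from -1.44 to -0.34 in controls to 4.17 to 4.95 at day 7. These differences were looked at after the values were known and were not tested.

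**Figure D5:**
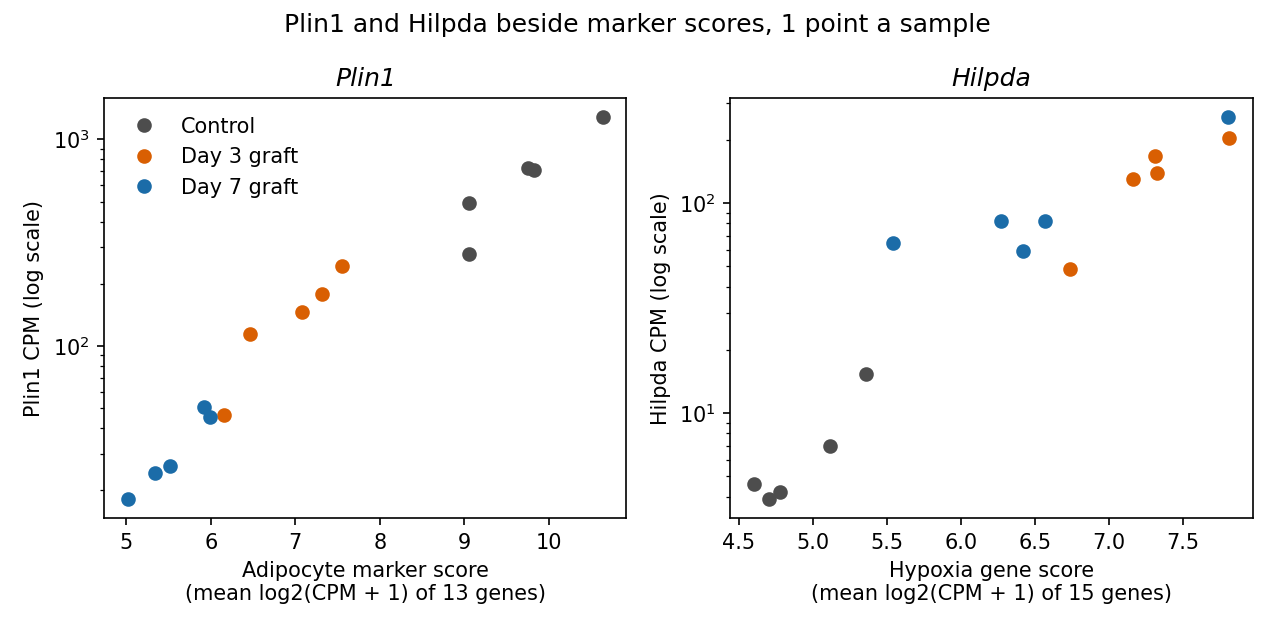
Left, Plin1 CPM (log axis) against the adipocyte marker score; right, Hilpda CPM (log axis) against the hypoxia gene score, with 1 point for each of the 15 samples. Plin1 falls along the score from controls to day 7 grafts, and the highest Hilpda values belong to day 3 graft 4 and day 7 graft 5, which have the highest hypoxia scores.

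Genes that make and break the triglyceride inside the droplet fell at both graft times. Of 9 genes of lipolysis all 9 fell at both times (medians -2.54 and -3.50). The largest falls at day 3 were those of Pnpla3, a lipase-related protein of droplets (153 ± 82.9 to 2.91 ± 1.78 CPM, -5.91 ± 0.60, adjusted p = 1.83e-06, limma), and of Adrb3, the adrenergic receptor that sets off lipolysis (-4.49 ± 0.64, adjusted p = 3.29e-05, limma). Between the graft times 3 of 9 were called lower, among them G0s2, an inhibitor of Pnpla2 (-1.91 ± 0.40, adjusted p = 0.016, limma), and Lipe, hormone-sensitive lipase (-1.69 ± 0.37, adjusted p = 0.0198, limma). Of 9 enzymes of triglyceride synthesis 9 fell at day 3 and 8 at day 7 (medians -2.81 and -3.25). Dgat2, which adds the last fatty acid, went from 898 ± 433 to 39.5 ± 20.4 CPM at day 3 (-4.43 ± 0.39, adjusted p = 6.71e-07, limma) and 13.9 ± 4.08 CPM at day 7.

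A list of 16 other droplet proteins did not move as a block. Of the 14 that were tested 5 rose and 3 fell at each graft time against control, with 6 not called and medians of 0.07 and 0.18, and 0 of the 14 were called between the graft times. Over all tested genes 60.4% were called at day 3 (30.1% higher and 30.3% lower), 60.7% at day 7 (32.2% and 28.4%) and 4.88% between the graft times. The list was thus called against control about as often as genes at large. Cidea, a relative of Cidec that is also among the brown fat markers above, fell from 207 ± 96.8 to 2.44 ± 1.45 CPM at day 3 (-6.49 ± 0.51, adjusted p = 3.04e-07, limma) and to 0.299 ± 0.295 CPM at day 7. Nsdhl, an enzyme of cholesterol synthesis found on droplets, fell by 1.76 ± 0.23 at day 3 (adjusted p = 1.65e-05, limma). Pcyt1a, which makes the phosphatidylcholine that covers growing droplets, rose from 56.8 ± 13.5 to 117 ± 14.3 CPM (1.06 ± 0.15, adjusted p = 3.72e-05, limma). Spart, spartin, rose by 0.85 ± 0.16 (adjusted p = 0.000422, limma).

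Markers of several cell types other than adipocytes were higher in the grafts, beside the rise of Plin2 and Plin3. All 12 macrophage markers rose at both times (medians 2.26 and 2.61), and their summed level was 1472 to 4077 CPM in controls, 5486 to 12330 CPM at day 3 and 9812 to 14290 CPM at day 7, with 0 of them at 0 counts throughout a group. Adgre1, the macrophage receptor F4/80, was at 17.4 to 93.9 CPM in controls, 230 to 600 CPM at day 3 and 404 to 544.5 CPM at day 7. Control 5, the control with the highest Plin2 to Plin1 ratio, had the highest macrophage level of the controls and also their highest neutrophil, fibroblast and hypoxia scores. Among the controls it also had the lowest Plin1 (280 CPM) and the lowest adipocyte score (9.051), with a middle Plin2 level (420 CPM). Day 3 graft 1, with the highest Plin2 to Plin1 ratio of its group (log2 4.51), had the highest macrophage level of its group, 12330 CPM, and the lowest Plin2, 944 CPM. Its adipocyte marker level, 3731 CPM, and its Plin1, 46.3 CPM, were also the lowest of that group. Of 9 markers of lipid-associated macrophages 7 rose at each time (medians 3.20 and 4.95), and 3 were called higher at day 7 than at day 3, among them Gpnmb (2.26 ± 0.45, adjusted p = 0.0124, limma), while Plin2 was not called between these times. The list includes Cd36, which adipocytes also express. Of 8 fibroblast markers 4 rose, 0 fell and 4 were not called at day 3. At day 7, 5 rose and 1, Dpp4, fell (-1.14 ± 0.30 for Dpp4, adjusted p = 0.00447, limma). Their summed level was 1722 to 7639 CPM in controls, 12680 to 27080 CPM at day 3 and 25910 to 30960 CPM at day 7. Most of that sum came from the collagen genes Col3a1 and Col1a1 (means of 16440 and 4203 CPM at day 3), so it mainly follows collagen RNA. Of 7 neutrophil markers 5 rose at each time, with a summed level of 20.2 to 187 CPM in controls, 160 to 738 CPM at day 3 and 325 to 1298 CPM at day 7. Of 7 endothelial markers 6 rose at day 3 and 5 at day 7, with a summed level of 456 to 584 CPM in controls, 474 to 1588 CPM at day 3 and 658 to 1247 CPM at day 7. All 6 B cell markers fell at both times, from 146 to 1880 CPM in controls to 3.42 to 7.49 CPM at day 3 and 8.31 to 23 CPM at day 7. The lowest control was control 4, and the other controls held 1133 to 1880 CPM. None of 5 epithelial markers passed the filter. The part of these cell types in the changes of the members was not tested.

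Fatty acids induce Plin2 through PPAR receptors in many cells, and other genes with that response split. Of 10 such genes 2 rose and 8 fell at day 3 (median -1.32), and 1 rose and 8 fell at day 7 (median -1.57). Those that rose at day 3 were Cpt1a, the mitochondrial entry enzyme for fatty acids (63.4 ± 18.4 to 202 ± 28.6 CPM, 1.71 ± 0.18, adjusted p = 2.34e-06, limma), and Angptl4, an inhibitor of lipoprotein lipase (349 ± 234 to 684 ± 240 CPM, 1.11 ± 0.37, adjusted p = 0.0173, limma). Among those that fell were Acadvl, a mitochondrial dehydrogenase of long fatty acids (-2.32 ± 0.19, adjusted p = 3.40e-07, limma), and Ehhadh, a peroxisomal enzyme (-3.73 ± 0.30, adjusted p = 3.68e-07, limma).

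Most other genes induced by low oxygen were also higher in the grafts. Of 15 hypoxia genes 12 rose and 0 fell at day 3 (median 3.19), and 11 rose and 1, Vegfa, fell at day 7 (median 2.12). Lox had the largest rise of the list at day 3 (4.455 ± 0.583, adjusted p = 1.65e-05, limma). Egln3, an oxygen-sensing hydroxylase, went from 8.61 ± 0.919 to 165 ± 66 CPM at day 3 (4.14 ± 0.69, adjusted p = 0.000137, limma). The mean log2(CPM + 1) of the list was 4.604 to 5.36 in controls, 6.74 to 7.81 at day 3 and 5.54 to 7.80 at day 7. The highest sample was the same by the score and by Hilpda in each group (control 5, day 3 graft 4 and day 7 graft 5). The lowest sample was the same at day 3 (graft 1) but not in the controls (control 3 by the score, control 2 by Hilpda) or at day 7 (graft 2 by the score, graft 4 by Hilpda). Day 7 graft 5, with 256 CPM of Hilpda, had a score of 7.80 beside 5.54 to 6.57 in the other day 7 grafts. Between the graft times 0 of the 15 were called (median -0.86), and Hilpda was not called either. The part of low oxygen in the level of Hilpda was not tested.

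By likeness over the 15 samples, measured as Pearson's r of log2(CPM + 1) among 9848 genes whose mean reached 10 CPM, the genes nearest to Plin1 were Lipe (0.995), Smoc1 (0.992) and Apol6 (0.989). Those nearest to Plin2 were Cyb5r3 (0.967), Zfand2a (0.967) and Cuedc2 (0.962), and those nearest to Hilpda were Krtcap2 (0.986), Nus1 (0.984) and Arg1 (0.978). Among the members Plin1 was nearest to Plin4 (0.984), Cidec to Fitm2 (0.99) and Plin2 to Hilpda (0.916) and Plin3 (0.911). Samples of 3 groups that lie apart give high values of r for any gene that differs between them, so these serve as a description and carry no p.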

How the data were processed

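RNA from mouse adipose tissue was sequenced in 15 samples (TruSeq stranded mRNA libraries with 151-base paired ends, per the labels' protocols). Tools listed without roles in the submitters' processing notes are RSEM 1.3.1, STAR 2.7.1a and cutadapt 2.8, with the build mm10. For every gene and sample the authors deposited TPM, RPKM and an estimated count. The estimated counts are whole numbers written with digit separators, per the file headers and values, and are not scaled. The RPKM values deposited by the authors are scaled for length and depth and give the same perilipin shares as TPM by construction. The TPM values deposited by the authors are scaled for length and then to a common total and served for ratios, shares and an alternative fit.

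Genes entered the tests with at least 0.3894 CPM (10 counts at the median library) in 5 samples and 15 counts in all. Scaling used a trimmed mean of M-values (trims of 30% and 5%, factors 0.746 to 1.14), and limma-voom (limma 3.58.1, R 4.3.3) fitted the 3 group means together. The fit was tested on simulated data in which few genes changed and all genes had the same spread. In these data most genes were called against control, a setting that the simulation does not cover. Samples with the same replicate number did not deviate together (correlations of deviations of -0.183 to 0.341), so no block was used. No pair of replicates agreed within counting noise.

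The members and 15 other gene lists were chosen with earlier results of these data known. Named beside the members are Adipoq, Adgre1 and, in each list, up to 2 called genes with the largest rise and 2 with the largest fall and at least 10 CPM in a group, and for Plin1, Plin2 and Hilpda the 3 genes of highest r. Gng3, Gm50139, Hdgfl2, Cd36 and Myh2 were named after their values were seen. Spart and Ldaf1 appear in the matrix as Spg20 and Tmem159. Promoter motifs were not analysed here. Alternatives changed the scaling, filter, unit, weights and samples. Figures were drawn with matplotlib 3.10.9.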

Additional observations from a re-analysis of the deposited data

Results flagged for a closer look

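Of 33 sets of 5 values, 6 held a sample set far apart from the others by Dixon's criterion at the 95% level. Chance alone gives this in about 5% of independent, normally distributed sets. The 6 flagged sets were CPM values without a log scale, and 4 of them concern control 4 in genes that move together. The 5% is thus only a rough guide here. Control 4 was the highest control by a wide gap for Plin4 (3599 CPM, next 1583), Cidec (2754, next 1175), Fitm2 (331, next 165) and Bscl2 (362, next 187). It also had the highest summed level of adipocyte markers, 76320 CPM, and the lowest scaling factor, 0.746. Its summed B cell markers were the lowest of the controls, 145.7 CPM beside 1133 to 1880 CPM in the others. On the deposited TPM it was not set apart for these 4 genes. Without control 4 the day 3 changes were -1.31 for Plin4, -2.76 for Cidec, -2.00 for Fitm2 and -1.64 for Bscl2.

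Hilpda was set apart in control 5 (15.3 CPM, next 6.95) and in day 7 graft 5 (256 CPM, next 82.4), and it was set apart in the same libraries on TPM (25.3 and 446 TPM).

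The effect of grafting differed between the graft times for 4 genes, by the test of day 7 against day 3. The log2 differences were -2.07 for Plin1, -1.94 for Plin4, -2.44 for Plin5 and -1.89 for Cidec.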

How the results depend on the processing

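For the 9 genes, 26 alternatives gave 234 changes for day 3 against control and 234 for day 7 against control, and all of them kept their direction and their side of the threshold. Of 234 changes for day 7 against day 3, 214 did, and the cause of the other 20 was not tested. Fitm2 passed with median-of-ratios scaling (-1.03, adjusted p = 0.0495), library totals (-0.96, 0.0429), the 2 graft groups alone (-1.02, 0.0257), log2(TPM + 1) (-0.82, 0.0369), quality weights (-0.98, 0.00192) and without control 2 and day 3 graft 1 (-1.17, 0.0429). Bscl2 passed with quality weights (-0.40, 0.0191). Plin2 was at 0.008 on TPM and 0.013 without day 3 graft 3. With single samples left out the values ran from -0.19 to 0.013 for Plin2, from -2.61 to -2.15 for Plin5 (adjusted p = 0.0162 to 0.088) and from -1.17 to -0.84 for Fitm2 (adjusted p = 0.0138 to 0.13). Fitm2 then passed without control 3 (0.0455), control 4 (0.0138), day 3 graft 1 (0.0294) or day 7 graft 5 (0.0432).

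The number of genes called at day 7 against day 3, 784 as reported (510 higher, 274 lower), was 1395 in a fit of the 2 graft groups (650 lower) and 3668 with quality weights (2135 higher, 1533 lower). It ran from 333 to 1512 with single samples left out (231 to 1003 higher, 90 to 687 lower). It was 1512 without control 4 and 1502 without day 7 graft 5, and 361, 354 and 397 without day 3 graft 3, 4 or 5. Without day 7 graft 1, 2, 3 or 4 it was 401, 333, 339 and 390. On TPM 2967 genes were lower at day 3 and 2585 at day 7, against 4856 and 4566. With a replicate block the counts of genes called were 9726, 9724 and 659, and the block changed no call of a member. In 1, 0 and 1 of 5 samples in the 3 comparisons the best match was the sample of the same number. Both perilipin ratios kept their calls in all alternatives run.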

Other observations

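The matrix annotates 74 genes to the lipid droplet in its gene ontology column, of which 7 are members, and Fitm2 and Bscl2 are not among them. Of the other 67 genes 63 were tested. At day 3 against control 17 were higher, 22 lower and 24 not called (median log2 change -0.09), and at day 7 18 were higher and 24 lower (median -0.04). At day 7 against day 3, 2 were higher and 7 lower (median -0.15). Over all tested genes 60.4% were called at day 3 against control (30.1% higher and 30.3% lower). The shares were 60.7% at day 7 against control (32.2% and 28.4%) and 4.88% at day 7 against day 3 (3.18% and 1.71%).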
